A study of Mus musculus with 12 samples.

Results

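The sirtuin family of the mouse, Sirt1 to Sirt7, was followed across RNA sequencing of oocytes cut from ovary sections by laser capture microdissection. The members were the rows of the gene count table whose Ensembl identifiers carry these symbols, and all 7 were found among the 55401 genes listed. The 12 libraries formed 4 groups of 3: oocytes of primordial follicles, the dormant stage, and of primary follicles, the first growing stage, each without and with dorsomorphin (DM), an inhibitor of the energy-sensing kinase AMPK. The comparison asked whether AMPK inhibition altered oocyte transcripts at either stage.

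The mice of every group were female C57Bl/6j x CBA/J hybrids with no transgene or deletion named, 7 to 8 days old by the study's methods. By those methods their ovaries were cultured for 5 days with DM or with the solvent DMSO, then fixed and embedded in paraffin. The methods give 200 oocytes per group, and the study's figure legends describe pools of 200, also per group. The number of oocytes per library is therefore not certain. The sample labels call the control sham and describe all 12 samples as in vivo, so label and methods differ on the culture. RNA of several collection caps was pooled for a stage, and the number of animals behind it was not given in the sources used here.

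Sirtuins are enzymes that use NAD+ to remove acetyl and other acyl groups from lysines, and some also transfer ADP-ribose. Because each reaction consumes NAD+, their activity follows the energy state of the cell, and Sirt1 and AMPK are known to activate each other. In the ovary, Sirt1, Sirt3 and Sirt6 have been studied in follicle reserve, oxidative stress and the chromatin of ageing oocytes. Sirt1, Sirt6 and Sirt7 act mostly in the nucleus, with Sirt7 in the nucleolus. Sirt2 is mainly cytoplasmic, and Sirt3, Sirt4 and Sirt5 work in mitochondria.

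The family is defined by a shared catalytic core, and the start of that core shows how far the genes are alike in the letters that reads were assigned by. The segments are the 60 bases of coding sequence that begin at the motif of glycine, alanine, glycine, any residue and serine in the NAD+ pocket. Capitals mark the 15 bases that encode this motif, and all are read 5′ to 3′ on the coding strand from the mouse annotation (GENCODE release M21, build GRCm38).
Sirt1: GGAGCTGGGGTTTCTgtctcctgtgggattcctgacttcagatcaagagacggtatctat
Sirt2: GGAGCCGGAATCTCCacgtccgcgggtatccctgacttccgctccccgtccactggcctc
Sirt3: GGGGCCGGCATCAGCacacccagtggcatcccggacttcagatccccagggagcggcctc
Sirt4: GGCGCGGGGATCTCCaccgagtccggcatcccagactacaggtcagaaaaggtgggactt
Sirt5: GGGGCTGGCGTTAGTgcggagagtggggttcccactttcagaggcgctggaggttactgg
Sirt6: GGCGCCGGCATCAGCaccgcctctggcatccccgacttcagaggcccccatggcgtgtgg
Sirt7: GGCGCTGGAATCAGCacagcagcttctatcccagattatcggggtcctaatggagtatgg
The motif held isoleucine as its variable residue in Sirt2, Sirt3, Sirt4, Sirt6 and Sirt7, and valine in Sirt1 and Sirt5. Between pairs of members, identity over the 60 bases ran from 36.67% for Sirt2 and Sirt5, and for Sirt4 and Sirt5, to 70% for Sirt3 and Sirt6. Sirt6 and Sirt7, both nuclear, shared 68.33% of these bases and 16 of 20 residues, as did Sirt2 and Sirt3. The longest exact run shared by any transcripts of 2 members was 23 bases, between Sirt1 and Sirt5, and the shortest such run was 12 bases, between Sirt1 and Sirt6.

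In GRCm38, Sirt1 (ENSMUSG00000020063.16) lies on the minus strand of chromosome 10 at 63319005 to 63381704, and Sirt6 (ENSMUSG00000034748.16) on the minus strand of the same chromosome at 81621785 to 81627797. Sirt7 (ENSMUSG00000025138.14) is on the minus strand of chromosome 11 at 120618372 to 120625240. Sirt2 (ENSMUSG00000015149.14) is on the plus strand of chromosome 7 at 28766735 to 28788661, and Sirt3 (ENSMUSG00000025486.17) is on its minus strand at 140863666 to 140882309. Sirt4 (ENSMUSG00000029524.16) occupies chromosome 5 at 115478010 to 115484725 on the minus strand, and Sirt5 (ENSMUSG00000054021.6) chromosome 13 at 43365496 to 43395203 on the plus strand. Counts over a gene were reads on its exons, which sum to between 2398 bases for Sirt4 and 6093 bases for Sirt5.

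Libraries held 14034586 to 42639326 counts, so that a count of 0 allowed up to 3 counts, or 0.0704 to 0.214 CPM (a count relative to the library's total), by counting error alone. Oocyte markers were present but did not lead: the summed level of 14 oocyte genes ran from 6.68 to 4267 CPM, and in each of the 12 libraries it lay below the sums of 10 granulosa genes, 268 to 42910 CPM, and of 9 stroma and theca genes, 1423 to 23350 CPM. Their order need not reflect cell numbers, since these sums mix genes of unequal length. The oocyte genes Sohlh1 and Zar1 were at 0 in all primordial DM libraries, Sohlh1 and Oosp1 were at 0 in all primary DM libraries, and the granulosa genes Fshr and Cyp19a1 were at 0 in all 12. In pooled samples, fewer cells of a type and less RNA per cell cannot be told apart, and the part of other cell types in the values that follow was not tested.

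Among the nuclear members, Sirt1, a histone and transcription factor deacetylase, had the most counts of the family. In primordial follicles the 3 controls held 29, 11063 and 0 Sirt1 counts and the 3 DM libraries 9807, 13 and 29. In primary follicles the controls held 4045, 2508 and 11 Sirt1 counts and the DM libraries 7, 21667 and 7. Thus 5 libraries, spread over all 4 groups, held over 1000 counts and the other 7 held at most 29, and the DM and control values overlapped at both stages. As a mean level, scaled by the trimmed mean of M values (TMM), Sirt1 stood at 70.3 ± 122 CPM (SD, n = 3) in primordial controls and 57.9 ± 98.9 CPM with DM. In primary follicles the mean was 48.8 ± 41.2 CPM in controls and 649 ± 1123 CPM with DM (SD, n = 3). The order of the group means was primary DM, primordial control, primordial DM and primary control, and each step down it was within the SD of the higher group, though the first exceeded that of the primordial controls.

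The Sirt1 fold change was within its SE at both stages. In primordial follicles it was -0.31 ± 2.82 on the log2 scale (SE, edgeR, adjusted p = 0.986), and without primordial control 2 it became 8.76 while without primordial DM 1 it became -6.58. In primary follicles it was 3.32 ± 3.41 (SE, edgeR, adjusted p = 0.605) and turned to -6.93 without primary DM 2. That library also had the highest summed oocyte level, 4267 CPM, the highest granulosa level, 42910 CPM, and the lowest TMM factor, 0.261. With library size alone as the scale the primary DM mean was 170 CPM against 99.2 CPM in controls. The primary log2 fold change of Sirt1 in edgeR was 0.62 on that scale and 6.54 with DESeq2 size factors.

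Sirt7, a nucleolar deacylase linked to ribosomal RNA transcription, was the only member with a count in all 12 libraries, though most were few. Primordial controls held 8, 157 and 2861 Sirt7 counts and primordial DM libraries 16978, 5 and 4. Primary controls held 1, 1304 and 3 Sirt7 counts, and primary DM libraries 5, 7 and 3. High values, above 1000, stood in 1 library of each group other than primary DM, and DM and control overlapped at both stages. Mean Sirt7 levels were 37.5 ± 62.3 CPM in primordial controls, 99.4 ± 172 CPM in primordial DM, 12.4 ± 21.1 CPM in primary controls and 0.378 ± 0.222 CPM in primary DM (SD, n = 3 each). Every step in that order, from primordial DM down to primary DM, was within the SD of its higher group.

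The Sirt7 fold change with DM was 1.33 ± 2.83 on the log2 scale in primordial follicles (SE, edgeR, adjusted p = 0.939). It fell to -8.04 without primordial DM 1 and rose to 6.05 without primordial control 3. In primary follicles, where Sirt7 did not pass the filter on low counts, the fit without that filter gave -5.33 ± 3.93 (SE, edgeR, adjusted p = 0.418). Without primary control 2 the value was 1.00.

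Sirt6, a histone deacetylase of telomeric and damaged chromatin, was counted in 6 libraries. Primordial controls held 70, 18 and 10 Sirt6 counts. Primordial DM libraries held 715, 5 and 0 Sirt6 counts. Primary controls held 0, 225 and 0 counts, and all 3 primary DM libraries held 0. In primordial follicles 1 DM library thus stood above all controls and the other 2 below them, and in primary follicles the groups overlapped at 0.

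In primordial follicles Sirt6 averaged 0.457 ± 0.164 CPM in controls and 4.22 ± 7.21 CPM with DM (SD, n = 3 each). The fold change was 3.17 ± 2.71 on the log2 scale (SE, edgeR, adjusted p = 0.784), and -2.88 without primordial DM 1. In primary follicles the control mean was 2.11 ± 3.66 CPM (SD, n = 3), which lay between the means of primordial DM and primordial controls and within its SD of both. Against the limit of 3 counts per library in the DM group Sirt6 was at least 9.70-fold lower with DM. That limit rests on primary control 2 alone, since without it every library of both groups was at 0. It was 60.5-fold with library size as the scale and 1.48-fold with DESeq2 size factors.

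Sirt2, the mainly cytoplasmic member and a tubulin deacetylase, passed 3 counts in 4 libraries, 1 in each group. In primordial follicles Sirt2 had 176, 0 and 0 counts in controls and 17, 0 and 0 with DM. The primary controls held 57, 2 and 0 Sirt2 counts and the primary DM libraries 0, 0 and 12. The groups overlapped at 0 at both stages. Mean Sirt2 levels were 0.541 ± 0.937 and 0.0994 ± 0.172 CPM in primordial control and DM, and 0.369 ± 0.591 and 0.274 ± 0.474 CPM in primary control and DM (SD, n = 3 each), so that the order of the groups was set by single libraries.

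Sirt2 did not pass the filter in either DM comparison. Fitted without the filter, its log2 fold change was -2.56 ± 3.10 in primordial follicles (SE, edgeR, adjusted p = 0.680) and 5.11 without primordial control 1. In primary follicles it was -0.39 ± 2.89 (SE, edgeR, adjusted p = 0.932), with the opposite sign, 1.68, under DESeq2 size factors. It ran from -6.26 without primary DM 3 to 2.69 without primary control 1.

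The 3 mitochondrial members were the least counted of the family, and 1 library, primordial control 1 for Sirt5, held over 100 counts of any of them. Sirt3, the main mitochondrial deacetylase, had 0, 10 and 1 counts in primordial controls and 4, 0 and 0 in primordial DM libraries, and 0 in all 6 primary libraries. Sirt5, which removes succinyl and malonyl groups, had 143, 0 and 1 counts in primordial controls and 0 in the other 9 libraries. Sirt4, a lipoamidase and ADP-ribosyltransferase, had 0, 2 and 1 counts in primordial controls, 0, 2 and 0 in primary controls and 0 in all 6 DM libraries. No library passed 3 counts for Sirt4, so its presence in controls and absence with DM was not detectable as a difference at this depth.

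For Sirt3 the primordial log2 fold change without the filter was -1.49 ± 2.65 (SE, edgeR, adjusted p = 0.780), and 0.64 without primordial control 2. Sirt5 was at least 5.22-fold lower with DM in primordial follicles against 3 counts per library, a limit that rests on primordial control 1, without which no count above 3 remained. In the fit without the filter Sirt5 had an unadjusted p under 0.05 and an adjusted p of 0.457 (edgeR). The limit was 12.5-fold with library size as the scale and 1.40-fold with DESeq2 size factors. The overlapping exons of other genes bear on Sirt3 most: it shares 342 bases with Psmd13 and 418 bases with Ric8a, both on the opposite strand, and these held up to 30549 and 6147 counts where Sirt3 held at most 10. Sirt7 shares 124 bases with Mafg on the same strand, which held at most 185 counts, and Sirt2 shares 42 bases with Nfkbib on the opposite strand, which held at most 17. Whether counting used strand was not given in the sources used here, so reads within the Sirt3 and Sirt2 stretches may belong to either gene. For Sirt7 and Mafg, on the same strand, strand could not separate such reads.

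**Figure D1:**
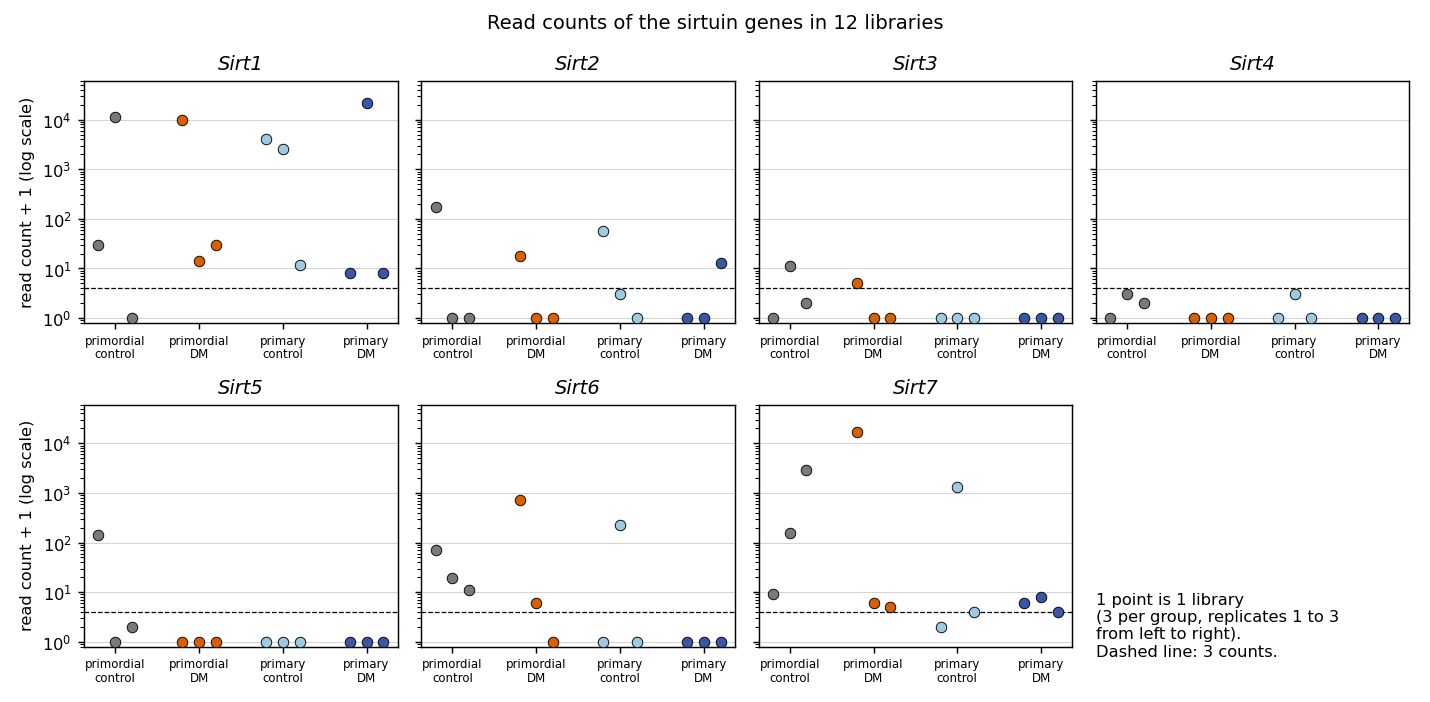
Read counts of Sirt1 to Sirt7 plus 1 (log scale) by group, with 1 point per library, replicates 1 to 3 from left to right, and a dashed line at 3 counts. Sirt1 exceeded 1000 counts in 5 libraries over all 4 groups, whereas Sirt3, Sirt4 and Sirt5 had 3 points above the line in all.

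Per length of exon, the nuclear members Sirt1 and Sirt7 had the highest mean levels of the family in every group. Sirt1 averaged 13.2 ± 22.8, 10.9 ± 18.5, 9.16 ± 7.73 and 122 ± 211 CPM per kilobase of exon (RPKM, SD, n = 3) in primordial control, primordial DM, primary control and primary DM. For Sirt7 the same means were 7.29 ± 12.1, 19.3 ± 33.4, 2.40 ± 4.10 and 0.0734 ± 0.0432 RPKM. Sirt6 reached 0.164 ± 0.059 RPKM in primordial controls and 1.51 ± 2.59 RPKM in primordial DM, and the highest mean of Sirt2, Sirt3, Sirt4 or Sirt5 was 0.107 RPKM, of Sirt2 in primordial controls.

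Within single libraries Sirt1 led the summed RPKM of the family in 8 of 12, among them all 3 primary controls with 98.5%, 58.39% and 77.98%, and the leading member differed between replicates in the other 3 groups. Sirt1 took 98.13% in primordial control 2 and 99.97% in primary DM 2, but 0% in primordial control 3, where Sirt7 took 99.23%. Sirt7 also led primordial DM 1 with 61.09%. In primordial control 1 Sirt2 led with 38.6%, followed by Sirt6 with 27.76% and Sirt5 with 25.91%, and in primary DM 3 Sirt2 led with 55.7% on 12 counts. The sum over the 7 genes was 109 ± 105.1 CPM in primordial controls, 162 ± 278 CPM in primordial DM, 63.7 ± 57.1 CPM in primary controls and 649 ± 1122 CPM in primary DM (SD, n = 3 each). Within each group the lowest and highest library differed widely, from 3.93 to 214 CPM in primordial controls and from 0.718 to 1945 CPM in primary DM, and the groups overlapped. The order of the group means depended on the scale: with library size alone they were 168 CPM in primordial controls, 240.7 CPM in primordial DM, 136 CPM in primary controls and 169.8 CPM in primary DM, and with DESeq2 size factors 71.0, 76.2, 30.2 and 2320 CPM.

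**Figure D2:**
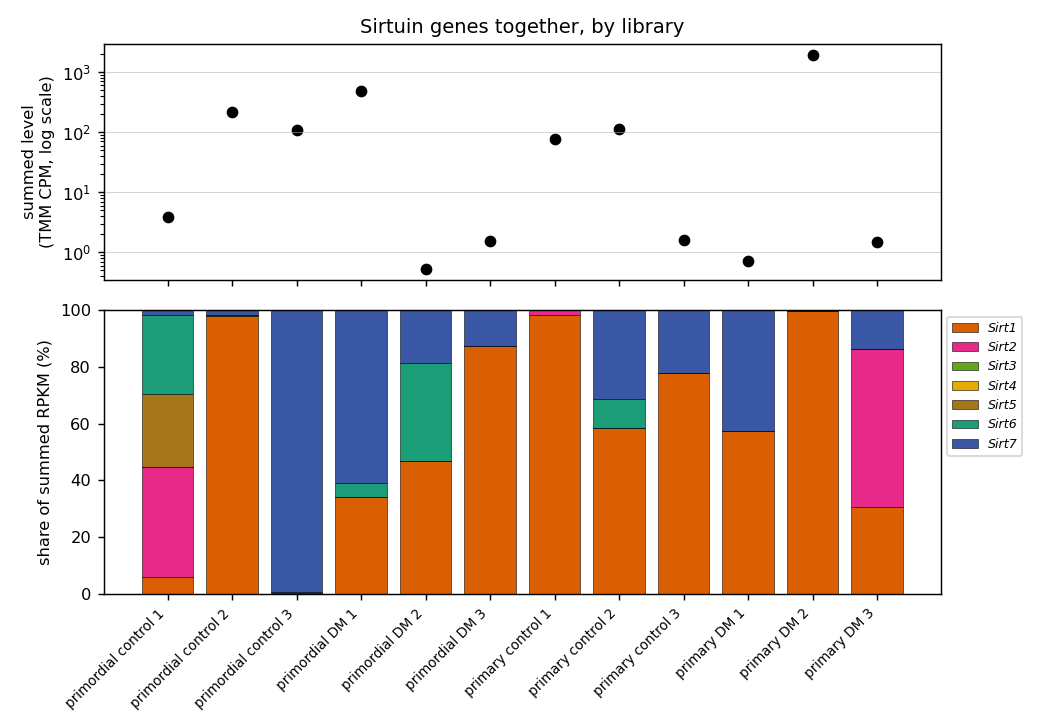
Upper panel, summed TMM-scaled level of the 7 sirtuin genes in each library (CPM, log scale). Lower panel, share of each gene in the summed RPKM of that library (%), with Sirt1 or Sirt7 leading in 10 of the 12 libraries and Sirt2 in primordial control 1 and primary DM 3.

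The concentration of counts in few libraries was measured for all genes. Of its 49186 counts, Sirt1 had 44.05% in its highest library and 86.48% in its highest 3. The highest library, primordial DM 1 for both, held 68.55% of the 1043 Sirt6 counts and 79.57% of the 21336 Sirt7 counts. Among the 6199 genes with over 3 counts in at least 6 libraries the median share of the highest library was 48.7%, which put Sirt1 at percentile 41.5, Sirt6 at 76.6 and Sirt7 at 86.4 of that distribution. In these counts, which were not scaled, Sirt1 was therefore spread over libraries about as unevenly as the median gene, and Sirt6 and Sirt7 more unevenly. On the TMM scale Sirt1 stood at 1945 CPM in primary DM 2 and next at 211 CPM in primordial control 2. Shares over all genes were not computed on that scale.

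**Figure D3:**
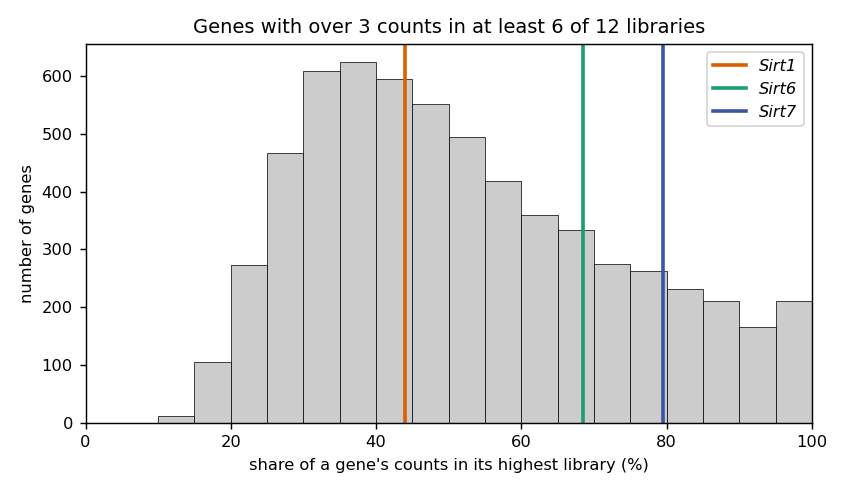
Number of genes (bars) by the share of their unscaled counts that lies in their highest library (%), for the 6199 genes with over 3 counts in at least 6 of 12 libraries. Vertical lines mark Sirt1 at 44.05%, Sirt6 at 68.55% and Sirt7 at 79.57%, with a median over genes of 48.7%.

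Under edgeR no sirtuin gene was called with DM at an adjusted p under 0.05 at either stage, and neither was any member at an unadjusted p under 0.05 among those that passed the filter on low counts. In primordial follicles 3 of 7 members passed the filter (Sirt1, Sirt6 and Sirt7) beside 6699 genes in all, of which 0.0149% were called. Their adjusted p ran from 0.784 to 0.986, with 2 members higher and 1 lower with DM and a median log2 fold change of 1.33, beside a median of 0.13 over all genes tested. In primary follicles only Sirt1 passed, among 4181 genes, of which 0% were called. Over all genes, 491 and 508 had an unadjusted p under 0.05 at the 2 stages. DESeq2 called 690 and 719 genes and also called 0 sirtuins. Of the 8 sirtuin fold changes given as values, however, it gave an adjusted p to only 1, Sirt7 in primary follicles, at 0.349. The spread behind these tests was wide, with a biological coefficient of variation of 1.76 in primordial and 1.86 in primary follicles and a median SE over genes of 2.84 and 3.14 on the log2 scale.

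DM and control libraries did not overlap for 12.6% of all genes tested at the primordial stage and for 13.3% at the primary stage. None of the 3 and 1 sirtuins tested did (0 sirtuins), a number too small to set apart from those shares. Each of the 8 fold changes given as values, of Sirt1, Sirt2, Sirt3, Sirt6 and Sirt7, changed sign when some single library was removed. Sirt5 in primordial and Sirt6 in primary follicles, given as limits, were not among these 8.

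**Figure D4:**
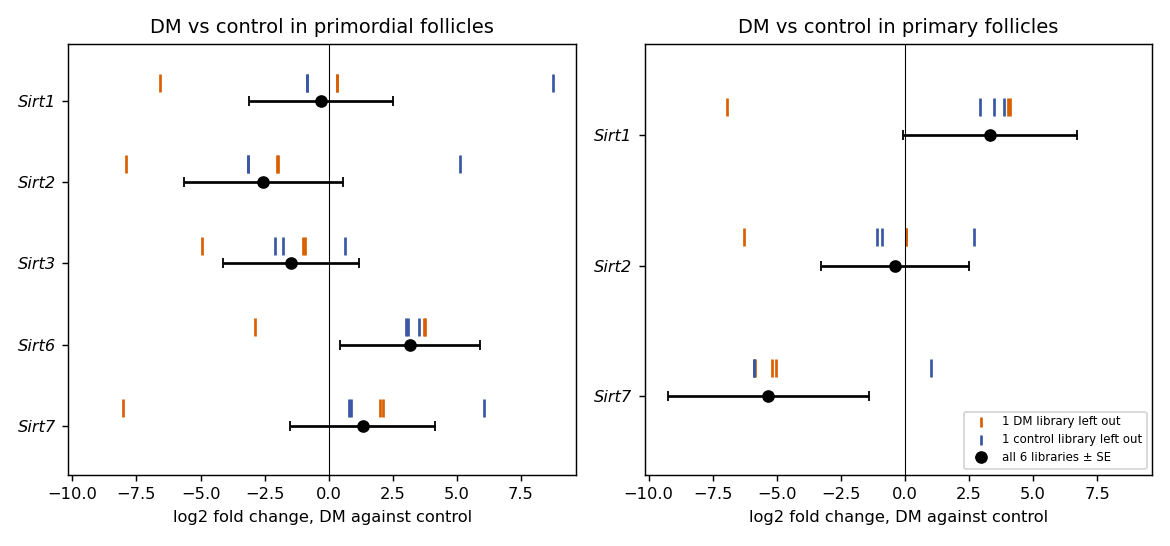
Log2 fold change of DM against control for the sirtuin genes given as values and not as limits, in primordial (left) and primary (right) follicles. Black points with SE are over all 6 libraries, and ticks have 1 DM (orange) or 1 control (blue) library left out. Each gene had ticks on both sides of 0, as for Sirt1 in primordial follicles, from -6.58 to 8.76.

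Between stages, no sirtuin was called by edgeR either. In controls 3 members passed the filter with primary against primordial fold changes of -0.41 ± 2.61 for Sirt1, 2.29 ± 2.58 for Sirt6 and -1.44 ± 2.94 for Sirt7 on the log2 scale (SE, edgeR, adjusted p = 0.906 to 0.988). The share of all 6726 genes called was 0%, with 433 at an unadjusted p under 0.05 and 290 called by DESeq2, and the share without overlap was 9.55%, beside 0 sirtuins. With DM, Sirt1 alone passed, at 3.20 ± 3.22 (SE, edgeR, adjusted p = 0.588). Of the members the filter removed, Sirt7 stood at -8.08 ± 4.21 in primary against primordial DM libraries (SE, edgeR without the filter, adjusted p = 0.351) and Sirt2 at 1.27 ± 2.84 (SE, adjusted p = 0.762). Against 3 counts per library, and on the TMM scale, Sirt6 was at least 19.4-fold lower in primary DM. Its unadjusted p was under 0.05 and its adjusted p 0.351 (edgeR without the filter). Primordial DM 1 held 715 of the Sirt6 counts and 16978 of the Sirt7 counts behind these values, and the other 2 primordial DM libraries at most 5 of either. In controls, Sirt5 at the primary stage was lower by at least 2.79-fold on the TMM scale, from the 143 counts of primordial control 1. These stage limits were not computed under other scalings, which moved the DM limits of both genes. Sirt2 in controls stood at -0.69 ± 3.07 (SE, edgeR without the filter, adjusted p = 0.924). Sirt3 and Sirt4 allowed no limit above 1 in either stage comparison. With DM, 0% of the 4331 genes were called, 746 had an unadjusted p under 0.05, DESeq2 called 990, and 16.2% did not overlap, beside 0 sirtuins.

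Whether the effect of DM differed between the stages was tested as an interaction over all 12 libraries, in which Sirt1, Sirt2, Sirt6 and Sirt7 passed the filter. No sirtuin was called, beside 0% of 8500 genes, and the adjusted p of the 4 members ran from 0.189 to 0.796. Sirt6 had the lowest, with an interaction of -12.51 ± 5.27 on the log2 scale (SE, edgeR, adjusted p = 0.189), and was the only member at an unadjusted p under 0.05, beside 1605 genes. Since primary DM libraries were all at 0 for Sirt6, the size of this value and of its SE depends on the prior count. The value was -8.42 with a prior count of 2. It was -6.43 without primordial DM 1, the library with 715 counts. Without primary control 2, which held 225 counts, it was -3.23, but every primary library was then at 0 for Sirt6. For DM against control over both stages, with stage as a covariate, 0% of 8500 genes and no sirtuin were called by edgeR, with 1085 genes at an unadjusted p under 0.05, 627 called by DESeq2 and adjusted p of 0.885 to 0.980 for the 4 members. Without the filter, Sirt5, at 0 in all 6 DM libraries and at 143 counts in 1 control, had an unadjusted p under 0.05 and an adjusted p of 0.363, and Sirt3 stood at -1.16 ± 2.13 (SE, edgeR, adjusted p = 0.822). Sirt3, Sirt4 and Sirt5 were each at 0 in more than 1 whole group. Without the filter their interactions had an SE of 3035, 76.45 and 14430, so no estimate is given for them.

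The genes whose profile over the 12 libraries was nearest to each of the 3 broadly counted members were sought among 6198 genes, by the mean absolute difference of log2(CPM + 1) after centring each gene. For Sirt1 these were Mtf1, a metal-responsive transcription factor, at 1.38, Taok1, a protein kinase, at 1.52, and Acsl3, an acyl-CoA ligase, at 1.53, against a median of 3.56 over all genes. Mtf1 shared with Sirt1 over 1000 counts in primordial DM 1, primary controls 1 and 2 and primary DM 2, but held 7 counts in primordial control 2, where Sirt1 held 11063. For Sirt6 the nearest were Ndc1, a nuclear pore protein, at 0.255, Alg2, an enzyme of N-glycan assembly, at 0.287, and Nadk, the cytosolic NAD kinase, at 0.350, against a median of 2.17. Nadk held 743 counts in primordial DM 1 and 50 in primary control 2. In every other library Sirt6 was at or under 0.645 CPM, where adding 1 compresses differences between low values. With a pseudocount of 0.1 the distance of Ndc1 was 0.657 against a median of 2.91, and Alg2 and Nadk left the nearest 3. For Sirt7 they were Kansl1l at 0.654, C330007P06Rik at 0.734 and Fem1c, a substrate receptor of a ubiquitin ligase, at 0.811, against a median of 2.81. With a pseudocount of 0.1, Mtf1 for Sirt1, Ndc1 for Sirt6, and C330007P06Rik and Fem1c for Sirt7 stayed among the nearest 3.

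Few enzymes that make NAD+ were counted broadly. Of 18 genes of NAD synthesis and salvage, 2 could be tested in the primordial comparison of DM with control and 1 in the primary one, all with estimates higher with DM and 0 called. Nampt, the rate-limiting enzyme of NAD+ salvage, had 3106, 1857 and 12 counts in primary controls and 22315, 57052 and 21 in primary DM libraries. The groups overlapped, and its log2 fold change was 5.43 ± 3.53 (SE, edgeR, adjusted p = 0.432). Nadk2, the mitochondrial NAD kinase, had 722, 2 and 0 counts in primordial controls and 146, 3 and 4270 with DM, for a fold change of 4.83 ± 3.51 (SE, edgeR, adjusted p = 0.728).

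Of 12 other consumers of NAD+, such as poly(ADP-ribose) polymerases, 6 were tested in primordial follicles, 4 higher and 2 lower with DM, and 4 in primary follicles, 1 higher and 3 lower, with 0 called. Parp4 led in primordial follicles at 3.41 ± 2.99 (SE, edgeR, adjusted p = 0.793), and tankyrase, Tnks, in primary follicles at -5.24 ± 3.50 (SE, edgeR, adjusted p = 0.448). Tnks held 8181, 5508 and 259 counts in primary controls against 137, 19 and 35 in primary DM libraries, so that these groups did not overlap, as was so for 13.3% of all genes tested there.

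Regulators and substrates of sirtuins, 20 genes, formed the largest list. In primordial follicles 13 were tested, 7 higher and 6 lower with a median of 0.24 on the log2 scale, and in primary follicles 10, 4 higher and 6 lower with a median of -1.91. None was called. Sod2, the mitochondrial superoxide dismutase and a Sirt3 substrate, had 5120, 5 and 8 counts in primary controls and 13, 6 and 7 with DM, for -5.92 ± 3.35 (SE, edgeR, adjusted p = 0.397).

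Among the 11 classical histone deacetylases, which need zinc and not NAD+, 9 were tested in primordial follicles, 5 higher and 4 lower, and 6 in primary follicles, 4 higher and 2 lower, with 0 called. Hdac7 in primordial follicles stood at 5.30 ± 2.68 (SE, edgeR, adjusted p = 0.658). Hdac8 had 21, 16 and 138740 counts in primary controls and 26, 57 and 36 with DM, and its log2 fold change was -11.00 ± 4.002 (SE, edgeR, adjusted p = 0.395), with primary control 3 far above the other 5 libraries. Of the 7 AMPK subunit genes 4 were tested in primordial follicles, 2 higher and 2 lower, and 2 in primary follicles, 1 higher and 1 lower, with 0 called. The regulatory subunits Prkab2 in primordial follicles, at -6.03 ± 3.35 (SE, edgeR, adjusted p = 0.658), and Prkab1 in primary follicles, at -7.27 ± 3.65 (SE, edgeR, adjusted p = 0.396), had the lowest p of that list.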

How the data were processed

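RNA of laser-captured oocytes was amplified and sequenced by the authors, who trimmed the reads with Trim Galore, aligned them to mouse build mm10 (TopHat2 in the methods, STAR in the submitters' processing notes) and assigned them to genes with featureCounts. The deposited values were raw counts per gene, without normalization. Library preparation is described both as TruSeq RNA Access and as Smart-seq II, and amplification before sequencing means that reads are not independent molecules, so limits and intervals cover counting error only. The paper names DESeq2 for its own comparisons.

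Of 55401 gene identifiers, 55141 were matched to the GENCODE annotation. Groups came from the sample labels. Counts were tested with the edgeR (4.0.16, R 4.3.3) quasi-likelihood test after filterByExpr and TMM scaling, with a prior count of 0.125 and Benjamini-Hochberg adjustment over all genes tested, at a threshold of 0.05. That test gives no SE. Each SE from edgeR is the absolute log2 fold change divided by the square root of the test's F statistic. It therefore changes with the prior count, as the fold change does. Each comparison used its own 6 libraries. The interaction of stage and DM, and DM against control with stage as a covariate, used all 12. In comparisons of 2 groups, and of DM over both stages, a member removed by the filter was given from the fit without it, and where all libraries of 1 group held 3 counts or fewer, as a limit. All 7 members were named, with the 3 nearest genes of each member that had over 3 counts in at least 6 libraries, and from each other list the gene with the lowest p per DM comparison, of which 1 is not reported here. Scripts were tested on simulated data. Members and lists were chosen with earlier results of these data known.

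DESeq2 (1.42.0), other scalings, filters and prior counts, a replicate block and leaving out each library were tried as alternatives. Libraries of 1 group differed by far more than sampling noise, with a chi-square per degree of freedom of at least 1146. So none was another library of its group sequenced again. The measure cannot exclude repeat amplifications of 1 RNA pool, and libraries of different groups were not compared in this way. The study calls the 3 samples of a group biologically independent, but the sources used here tie no sample to animals, so p-values measure the spread between these libraries.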

Additional observations from a re-analysis of the deposited data

How the results depend on the processing

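No sirtuin was called in any of the 6 comparisons under any alternative or with any library left out (0 to 0 in each), at an adjusted p under 0.05. A member without an adjusted p could not be called. Of the DM fold changes given as values, DESeq2 gave an adjusted p only to Sirt7 in primary follicles, and it gave none to Sirt6 in the interaction. At an unadjusted p under 0.05, among members that passed the filter, 1 sirtuin passed, in the interaction. In fits without the filter, Sirt5 for DM in primordial follicles and over both stages, and Sirt6 for stage with DM, were also under 0.05. Over all genes, the unadjusted threshold gave 491 (DM in primordial), 508 (DM in primary), 433 (stage in controls), 746 (stage with DM), 1605 (interaction) and 1085 genes (DM over both stages), and DESeq2 called 690, 719, 290, 990, 586 and 627, where edgeR called 1 in the first and 0 in the others. The cause of the gap between the tools was not tested. The single call in primordial follicles became 0 under DESeq2 size factors, library size, without a filter, with at least 10 counts required in every library, with the replicate block and a fit of all 12 libraries, and 0 to 3 with 1 library left out. Stage in controls gave 1 call with library size and 4 with at least 10 counts in every library, stage with DM 0 to 4 with 1 library left out, and the other comparisons 0 to 0. No sirtuin passed the filter of at least 10 counts in every library, so none has a value there. Same-numbered libraries did not deviate together (correlations of -0.035 to 0.040), so the numbers were not taken as pairs. With the replicate block the primordial log2 fold changes were 6.39 for Sirt1, -1.19 for Sirt6 and -4.48 for Sirt7, and that of Sirt1 in primary follicles -1.53. Sirt2 in primary follicles was 1.72 with DESeq2 and 1.68 with its size factors in edgeR. With 1 library left out, primordial values ran from -6.58 to 8.76 for Sirt1, -7.92 to 5.11 for Sirt2, -4.95 to 0.64 for Sirt3, -2.88 to 3.77 for Sirt6 and -8.04 to 6.05 for Sirt7. Primary values ran from -6.93 to 4.11 for Sirt1, -6.26 to 2.69 for Sirt2 and -5.90 to 1.00 for Sirt7. Scaling moved the median log2 fold change of all genes from 0.13 (TMM) to 0.56 (DESeq2 size factors) and -0.43 (library size) in primordial and from 0.31 to 2.04 and -0.96 in primary follicles.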

Other observations

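The nearest counted neighbours of Sirt1 and Sirt7 shared some of the libraries in which these were high, and that of Sirt6 neither. Those of Sirt1 and Sirt7 also had high values of their own in libraries where the member was low. Herc4, a ubiquitin ligase gene 1127 bases from Sirt1, held 15 counts in primordial DM 1, where Sirt1 held 9807, and 5308 in primordial control 3, where Sirt1 held 0. Both genes were high in primordial control 2, with 9958 Herc4 counts beside 11063 of Sirt1, and in primary DM 2, with 23174 beside 21667. In primary control 1 they held 6479 and 4045. Herc4 held 11866 counts in primordial control 1, 13658 in primordial DM 2 and 7619 in primordial DM 3. Sirt1 held 29, 13 and 29 counts in those libraries. Pcyt2, a gene of phosphatidylethanolamine synthesis 436 bases from Sirt7, held 10 counts in primordial DM 1, where Sirt7 held 16978, 0 in primordial control 3, where Sirt7 held 2861, and 206 in primary control 2, where Sirt7 held 1304. The highest Pcyt2 value, 397 counts, was in primordial control 1, where Sirt7 held 8. Ankrd24, 743 bases from Sirt6, held 0 counts in primordial DM 1 and primary control 2, where Sirt6 held 715 and 225. These pairs were chosen as the nearest counted protein-coding genes that do not overlap the member, after their values were seen, and no test was run.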
